A study of Rattus norvegicus with 24 samples.

Results

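Nr3c1 (ENSRNOG00000014096), Fkbp5 (ENSRNOG00000022523) and Sgk1 (ENSRNOG00000011815), the glucocorticoid receptor gene and 2 of the genes it is known to induce, were followed in 24 RNA-seq libraries of rat brain. These 3 genes were chosen by identifier from the 17323 in the count table, and 3 of 3 were present and passed the filter on low counts. The libraries came from 8 male F1 rats, each giving 1 library of the nucleus accumbens core (NAc core), 1 of the nucleus accumbens shell (NAc shell) and 1 of the ventral tegmental area (VTA). Subgroup A (4 rats) was sired by F344 males on BN females, and subgroup B (4 rats) by BN males on F344 females. According to the labels, 2 rats of each subgroup (1 and 2 in A, 3 and 4 in B) were injected intraperitoneally with 0.4 mg/kg nicotine (NIC) on 4 days, and the other rats (11 and 15 in A, 13 and 16 in B) with saline (SAL). All 8 then received 10 intravenous infusions of nicotine (30 µg/kg each) in every one of 6 sessions, and the brain was collected on day 15, so no group was free of nicotine. In the paper the rats earned infusions by pressing a lever, and passive infusions made up the rest of the 10. It reports that rats of subgroup A self-administered more than those of B, so the cross and this behaviour cannot be told apart.

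The glucocorticoid receptor is a transcription factor held in the cytoplasm by chaperones until corticosterone, the main stress hormone of the rat, binds it. It then enters the nucleus and switches genes on or off. FKBP5 is a co-chaperone that lowers the receptor's affinity for hormone, so its induction is a negative feedback, and SGK1 is a kinase that acts on ion channels and transporters and is induced by glucocorticoids in many tissues. The mRNA of both is widely used as a readout of recent receptor activity. Nr3c1 encodes the receptor itself, which is made in neurons and glia alike.

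The promoters of the targets are shown because it is asked below whether Fkbp5 and Sgk1 moved together across rats. RefSeq lists 1 start site for Fkbp5 and 3 for Sgk1 in the GRCr8 build, and each stretch runs from 250 bases before a start site to 50 bases after it. That of Fkbp5 lies on chr20:6543506-6543805, minus strand, and the one printed for Sgk1, the most downstream of the 3, lies on chr1:24804782-24805081, minus strand. Capitals mark a TATA box (TATAAA).

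Fkbp5: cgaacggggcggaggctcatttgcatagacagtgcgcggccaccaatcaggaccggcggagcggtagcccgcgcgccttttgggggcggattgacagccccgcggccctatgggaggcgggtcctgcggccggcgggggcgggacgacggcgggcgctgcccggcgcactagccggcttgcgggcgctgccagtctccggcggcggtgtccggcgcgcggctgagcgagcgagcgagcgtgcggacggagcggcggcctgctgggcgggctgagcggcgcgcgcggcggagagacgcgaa

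Sgk1: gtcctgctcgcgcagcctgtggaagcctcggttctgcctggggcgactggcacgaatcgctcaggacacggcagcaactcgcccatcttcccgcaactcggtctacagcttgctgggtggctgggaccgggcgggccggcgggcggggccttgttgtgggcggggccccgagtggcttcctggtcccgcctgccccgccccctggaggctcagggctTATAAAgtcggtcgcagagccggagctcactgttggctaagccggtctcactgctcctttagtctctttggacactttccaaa

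The full glucocorticoid response element, searched as the arm AGAACA, any 3 bases and the reverse complement of the arm, reads the same on both strands and was not found in the 1 stretch of Fkbp5 or the 3 of Sgk1, and neither was the arm alone on either strand. Among all 33469 promoters of that length, 0.0149% held the full element and 20.7% the arm, which the full element contains. TATAAA on either strand was present in 14.2% of all promoters, in 2 of the 3 of Sgk1 and in 0 of the 1 of Fkbp5. The printed Fkbp5 promoter had 77.0% G and C and the printed Sgk1 promoter 66.0%. These letters describe windows of 300 bases, and elements farther away were not searched.

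Total counts ranged from 17563458 to 24405856 per library. Marker genes placed the libraries in their regions with an exception in the VTA: the summed level of 8 markers of striatal projection neurons had a median of 3657 CPM (counts scaled to the size of the library) in the core, 2558 in the shell and 305 in the VTA, and that of 9 oligodendrocyte markers 11885, 11518 and 37892 CPM. The VTA library of rat 2 had 34.6 CPM of 4 markers of dopamine neurons, against 207 to 370 in the other 7 VTA libraries, and its Slc18a2, the vesicular monoamine transporter, was at 4.01 CPM against 159 or more. The VTA libraries of rats 1 and 2 also held transcripts of the choroid plexus, with 15846 and 2745 CPM summed over 4 markers against 2.71 to 13.7 in the other 6, most of it Ttr (15177 and 2626 CPM). Both rats were of subgroup A and nicotine-injected. Results of the members in the VTA are therefore given with and without these 2 libraries, apart from the interaction, where they are the whole group of nicotine-injected rats of A. Preparation batch followed the groups: nicotine-injected rats of A were in batch E, those of B in F and saline rats in G, apart from the VTA libraries of rats 2 and 16 in batch L, so batch and injection cannot be told apart in NAc core and NAc shell. In the VTA batch L held a nicotine rat of A and a saline rat of B, the only libraries in which they can. Among nicotine-injected rats, subgroup and batch cannot be told apart in the accumbens, and in the VTA no batch held such rats of both subgroups. In bulk tissue, fewer cells that express a gene and less RNA per cell cannot be told apart either. The p-values of differences measure the spread between libraries within a group. In the comparisons of regions the libraries of a rat were treated as independent, and the rat as a replicate block was an alternative. The p-values of correlations give the share of permuted orders of rats with an r at least as large in size.

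Between regions, Fkbp5 was the member that differed most, with a lower level in the VTA than in either part of the accumbens. In NAc core it was at 85.6, 93.0, 81.5 and 91.4 CPM in rats 1, 2, 11 and 15 of subgroup A and at 81.1, 76.9, 95.9 and 76.1 CPM in rats 3, 4, 13 and 16 of subgroup B. In NAc shell the same rats had 89.9, 83.7, 88.4 and 82.5 CPM and 82.2, 76.1, 87.0 and 73.0 CPM. In VTA they had 69.0, 65.6, 55.8 and 39.5 CPM and 34.5, 49.3, 52.8 and 36.2 CPM. Every VTA library lay below every accumbens library, and the highest VTA levels were those of rats 1 and 2, the libraries with choroid plexus transcripts.

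The means were 85.2 ± 7.52 CPM in core, 82.8 ± 5.89 in shell and 50.3 ± 13.0 in VTA (SD, n = 8 rats). Fkbp5 was 1.71-fold higher in NAc core than in VTA (log2 difference 0.77 ± 0.13 SE, edgeR adjusted p = 6.57e-05) and 1.65-fold higher in NAc shell than in VTA (0.72 ± 0.13, adjusted p = 0.000103). Such calls were common, since 61.8% of the 16289 genes tested passed in the first of these comparisons and 59.8% in the second. Within rats, the level was higher in the accumbens in 8 of 8 for each region, by 0.31 to 1.23 on the log2 scale in core and 0.35 to 1.25 in shell. Without the VTA libraries of rats 1 and 2 the differences were 0.94 and 0.87 on the log2 scale (adjusted p = 4.94e-07 and 9.87e-07), and the VTA mean of the other 6 rats was 44.7 ± 9.08 CPM (SD). Between NAc core and NAc shell, where 15.1% of genes passed, the difference of 0.04 ± 0.06 did not pass (adjusted p = 0.738).

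**Figure D1:**
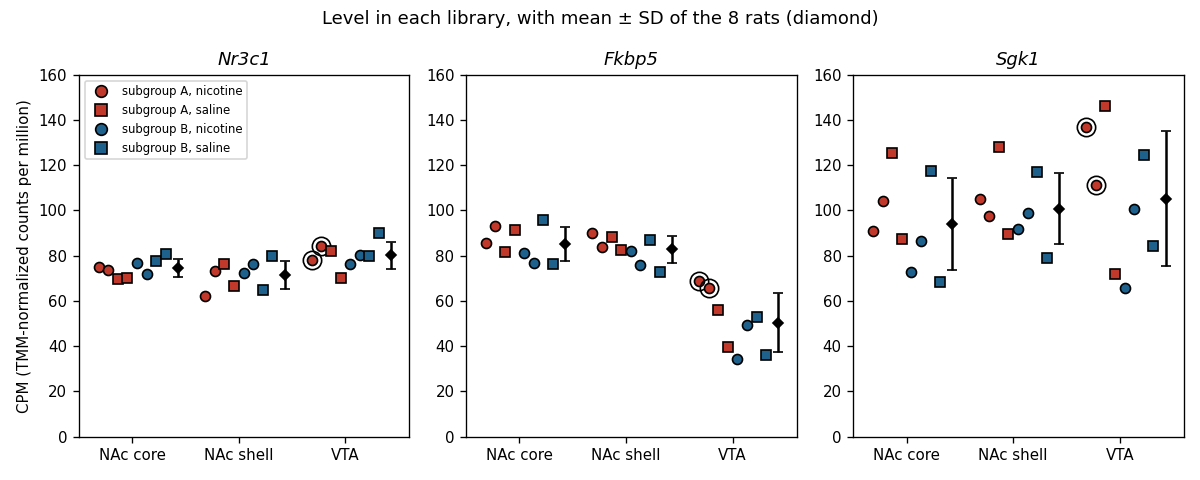
Level of Nr3c1, Fkbp5 and Sgk1 in each of the 24 libraries, in TMM-normalized CPM (y axis, from 0) by region (x axis), with red for subgroup A, blue for subgroup B, circles for nicotine and squares for saline; the diamond and bar give the mean ± SD of 8 rats, and rings mark the VTA libraries of rats 1 and 2. The 8 VTA values of Fkbp5, 34.5 to 69.0 CPM, lie under all of its accumbens values, while the 3 regions overlap for Nr3c1 and Sgk1.

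Nr3c1, the receptor, was at 75.2, 73.6, 69.6 and 70.3 CPM in NAc core of rats 1, 2, 11 and 15 and at 76.6, 71.9, 77.8 and 80.8 CPM in rats 3, 4, 13 and 16. The levels in NAc shell were 62.0, 73.2, 76.3 and 66.6 CPM and 72.3, 76.3, 64.9 and 80.0 CPM in the same order of rats. Those in VTA were 78.0, 84.4, 82.0 and 69.9 CPM and 76.3, 80.4, 79.9 and 90.2 CPM. The regions overlapped, and rat 16 had the highest level in each of the 3.

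From high to low, the means of Nr3c1 were 80.1 ± 5.91 CPM in VTA, 74.5 ± 3.86 in NAc core and 71.5 ± 6.33 in NAc shell (SD, n = 8). The neighbours in this order did not differ beyond their spread (core against VTA -0.09 ± 0.05 on the log2 scale, edgeR adjusted p = 0.139; core against shell 0.06 ± 0.05, adjusted p = 0.554). Shell was lower than VTA by a small amount that passed the test, -0.16 ± 0.06 on the log2 scale (adjusted p = 0.0289), and it was the lower of the pair in 8 of 8 rats. Core against VTA was -0.09 without the VTA libraries of rats 1 and 2 (adjusted p = 0.142), and the other 6 rats had a VTA mean of 79.8 ± 6.66 CPM. The call for shell held without them (-0.18, adjusted p = 0.0241) and was lost without rat 1 in either region (-0.14, adjusted p = 0.0640) and with preparation batch as a covariate (-0.11, adjusted p = 0.136).

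Sgk1 varied from rat to rat more than it did between regions. Its levels in NAc core were 90.8, 104, 126 and 87.6 CPM in rats 1, 2, 11 and 15 and 72.6, 86.3, 118 and 68.5 CPM in rats 3, 4, 13 and 16. In NAc shell they were 105, 97.7, 128 and 89.7 CPM and 91.8, 98.9, 117 and 78.8 CPM. In VTA they were 137, 111, 146 and 71.9 CPM and 65.6, 101, 124 and 84.1 CPM. Rat 11 was the highest in all 3 regions, rat 13 was at rank 2 or 3, and rats 3, 15 and 16 were among the lowest 4 of each region.

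The mean of Sgk1 was 94.1 ± 20.3 CPM in core, 101 ± 15.7 in shell and 105 ± 29.9 in VTA (SD, n = 8), and no pair of regions passed the edgeR test. The log2 differences were -0.10 ± 0.12 for core against shell (adjusted p = 0.635), -0.15 ± 0.17 for core against VTA (adjusted p = 0.463) and -0.06 ± 0.15 for shell against VTA (adjusted p = 0.748). The last of these was 0.0064, and core against VTA -0.07, without the VTA libraries of rats 1 and 2, and the other 6 rats had a VTA mean of 98.9 ± 31.5 CPM. With the rat as a replicate block, core against shell was -0.12 ± 0.05 (edgeR adjusted p = 0.134, unadjusted 0.0343). The SD of log2 CPM across rats was 0.31 in core, 0.22 in shell and 0.43 in VTA, larger than that of 90.1%, 81.0% and 87.6% of the 11813 genes averaging 100 or more normalized counts. For Fkbp5 the SD was 0.13, 0.10 and 0.38, larger than that of 41.4%, 33.9% and 84.4% of those genes. For Nr3c1 it was 0.07, 0.13 and 0.11, larger than that of 9.91%, 49.0% and 13.3%. Over the 6 rats other than 1 and 2 the SD in VTA was 0.45 for Sgk1, 0.30 for Fkbp5 and 0.12 for Nr3c1.

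Whether the targets moved together was asked across the 8 rats. The relation of Fkbp5 with Sgk1 had its highest r in VTA, a Pearson's r of 0.87 (exact permutation p = 0.00838, adjusted p = 0.0754) and Spearman's rho of 0.86 (exact permutation p = 0.0107, adjusted p = 0.0784). In NAc shell r was 0.77 (exact permutation p = 0.0264, adjusted p = 0.0953) and rho 0.76 (exact permutation p = 0.0368, adjusted p = 0.110). In NAc core r was 0.56 (exact permutation p = 0.156, adjusted p = 0.281) and rho 0.71 (exact permutation p = 0.0576, adjusted p = 0.130). The p-values are two-sided and adjusted over the 18 correlations computed, and 0 of these 3 passed after adjustment.

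**Figure D2:**
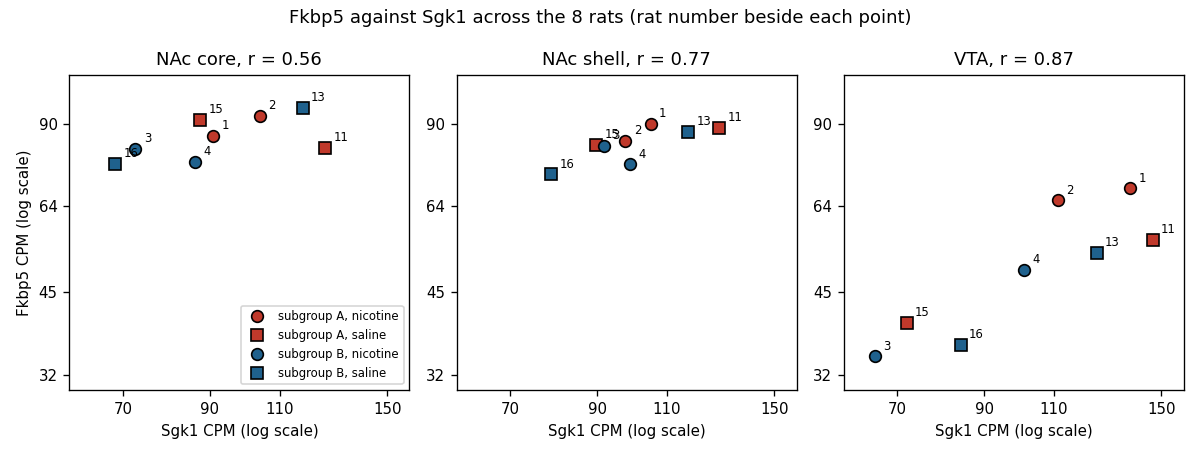
Fkbp5 (y axis) against Sgk1 (x axis), both in CPM on log scales, across the 8 rats in each region, with the rat number beside each point, red for subgroup A, blue for subgroup B, circles for nicotine and squares for saline. Pearson's r is 0.56, 0.77 and 0.87, and rats 3, 15 and 16 are at the low end of both genes in VTA.

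Without the 2 rats farthest from the median, r between Fkbp5 and Sgk1 was 0.78 in VTA (exact permutation p = 0.0681), 0.79 in shell (exact permutation p = 0.0792) and 0.28 in core (exact permutation p = 0.589). In core rho was 0.71 with and without those rats, and leaving out 1 rat at a time gave r from 0.39 (without rat 16) to 0.84 (without rat 11), so that r there depended on single rats. Without the VTA libraries of rats 1 and 2, r in VTA was 0.94 over 6 rats (exact permutation p = 0.0139, adjusted p = 0.125 over 9 correlations). As deviations from the means of the 4 combinations of subgroup and injection, which removes differences between batches E, F and G but not those of batch L in VTA, r was 0.94 in VTA, 0.80 in shell and 0.45 in core. There the smallest p that exchanging rats within their combination can give is 0.125. The batches held 2 to 4 rats in core and in shell and 1 to 3 in VTA, too few for a correlation within each. For Nr3c1, r with Fkbp5 was -0.12 in core, -0.69 in shell and 0.14 in VTA, and r with Sgk1 was -0.48, -0.29 and 0.33 (exact permutation p from 0.0582 to 0.774). Without the 2 farthest rats these 6 values were 0.18, -0.46, 0.59, 0.24, 0.04 and 0.50 in that order, and without the VTA libraries of rats 1 and 2 those in VTA were 0.10 and 0.39.

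For Sgk1, the level of a rat in a region was set against its level in the others. Between NAc core and NAc shell r was 0.91 (exact permutation p = 0.00273, adjusted p = 0.0491) and rho 0.83 (exact permutation p = 0.0154, adjusted p = 0.0784). Between core and VTA r was 0.78 (exact permutation p = 0.0265, adjusted p = 0.0953) and rho 0.81 (exact permutation p = 0.0218, adjusted p = 0.0784). Between shell and VTA r was 0.80 (exact permutation p = 0.0173, adjusted p = 0.0953) and rho 0.86 (exact permutation p = 0.0107, adjusted p = 0.0784). Core against shell was the 1 of 18 correlations that passed by Pearson's r, and 0 of 18 passed by rho. Without the 2 farthest rats the 3 values of r were 0.73, 0.62 and 0.82 (exact permutation p = 0.0903, 0.185 and 0.0444), the adjusted p of the first was then 0.325, and leaving out any of 7 rats other than rat 2 also took its adjusted p above 0.05. Without the VTA libraries of rats 1 and 2, r was 0.86 between core and VTA and 0.85 between shell and VTA (exact permutation p = 0.0319 and 0.0444, adjusted p = 0.133 for each over 9 correlations).

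For comparison, the median r over the 11813 genes averaging 100 or more normalized counts was 0.18 between core and shell, 0.03 between core and VTA and 0.06 between shell and VTA. At or above the value of Sgk1 lay 0.330%, 1.45% and 0.847% of those genes, Sgk1 among them. The saline rats, which shared batch G in the accumbens, had the order 11, 13, 15, 16 from high to low in both core and shell. Of the nicotine rats, rat 3 was the lowest in each region. The 3 libraries of a rat share the animal, its injections and mostly its batch, and the part of each in the relation was not tested.

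**Figure D3:**
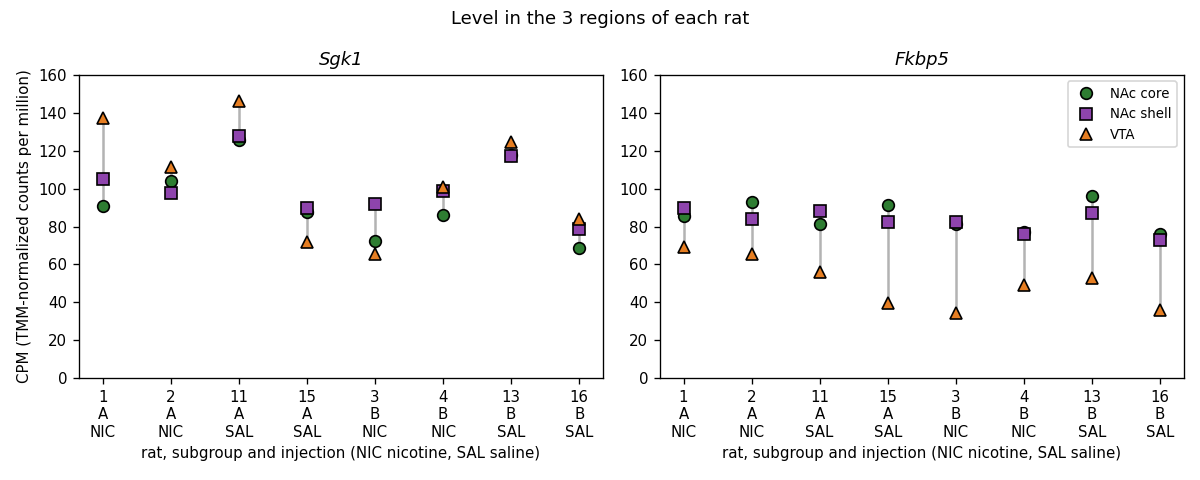
Level of Sgk1 (left) and Fkbp5 (right) in NAc core (circles), NAc shell (squares) and VTA (triangles) of each rat, in CPM from 0, with the grey line spanning the 3 regions of a rat. Rat 11 has the highest Sgk1 in each region, and for Fkbp5 the VTA lies under both accumbens regions in 8 of 8 rats.

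Fkbp5 had r of 0.61 between core and shell (exact permutation p = 0.113), 0.41 between core and VTA (exact permutation p = 0.302) and 0.63 between shell and VTA (exact permutation p = 0.0954). Its rho for these pairs was 0.64, 0.52 and 0.81 (exact permutation p = 0.0962, 0.197 and 0.0218), and without the 2 farthest rats r was 0.63, 0.17 and 0.72. Rat 16 had the lowest Fkbp5 in core and in shell and the next to lowest in VTA. Nr3c1 had r of 0.03, 0.50 and 0.63 (exact permutation p = 0.943, 0.208 and 0.0907), and -0.30, 0.39 and 0.91 without the 2 farthest rats. For Fkbp5 r with VTA was 0.26 from core and 0.54 from shell without the VTA libraries of rats 1 and 2, and for Nr3c1 0.56 and 0.72. None of these relations over 8 rats passed after adjustment (adjusted p of the exact permutation tests from 0.215 to 0.943 for r and from 0.0784 to 0.935 for rho).

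Over the 23 libraries other than the VTA library of rat 2, with each region centred on its mean, Fkbp5 and Sgk1 were each at rank 3 of likeness to the other among 11812 compared (r = 0.80, a description over libraries that share rats). For Fkbp5 the genes ahead of it were Vamp8, a vesicle fusion protein (r = 0.82), and Tmed2, a cargo receptor of the secretory pathway (r = 0.81). For Sgk1 they were ENSRNOG00000012074 (r = 0.82), which no symbol was paired with, and Lims2, an adaptor of focal adhesions (r = 0.81). Over the 22 libraries without the VTA libraries of rats 1 and 2, Fkbp5 and Sgk1 became the first for each other (r = 0.80), and Vamp8 and Tmed2 were at ranks 5 and 9 for Fkbp5. Over all 24 libraries Sgk1 was the first for Fkbp5 (r = 0.76), while Vamp8 and Tmed2 were at ranks 330 and 1192 (r = 0.48 and 0.31). There Fkbp5 was at rank 3 for Sgk1, and Lims2 at rank 48 (r = 0.55). The other genes named for Fkbp5 and Sgk1 thus depended on the VTA library of rat 2. In the 16 accumbens libraries alone their r was 0.64, and Sgk1 was at rank 63 for Fkbp5. Nr3c1 was most like ENSRNOG00000018456 and ENSRNOG00000001317 (both r = 0.76), without a paired symbol, and its r was -0.15 with Fkbp5 and -0.06 with Sgk1. Over all 24 libraries these were -0.06 and -0.04 and in the 16 accumbens libraries -0.43 and -0.34, where the genes named for Nr3c1 were at ranks 63 and 53.

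Other known glucocorticoid targets were read from a list of 32 genes, of which 15 could be matched to an identifier, Fkbp5 and Sgk1 among them. Over the same 23 libraries, 13 of 13 other targets had a positive r with Fkbp5 (median 0.40) and 12 of 13 with Sgk1 (median 0.43), where 46.7% and 48.6% of all tested genes had a positive r (medians -0.02 and -0.01). With Nr3c1 the count was 8 of 13 (median 0.08; 48.7% of all genes). Errfi1, a feedback inhibitor of the EGF receptor, had r of 0.76 with Fkbp5 and 0.79 with Sgk1. Cdkn1a, a cell cycle inhibitor, had 0.67 and 0.61, and Mt1, a metal-binding metallothionein, 0.51 and 0.51. Klf9, a transcription factor induced by glucocorticoids in neurons, had 0.35 and 0.21, and Arl4d, a small GTPase, had 0.31 and -0.15. Without the VTA library of rat 1 as well, Errfi1 had 0.70 and 0.76, Cdkn1a 0.48 and 0.54 and Mt1 0.35 and 0.43. Klf9 then had 0.39 and 0.20 and Arl4d 0.04 and -0.36. In the 16 accumbens libraries Arl4d had -0.02 and -0.58, Klf9 0.09 and 0.05 and Mt1 0.25 and 0.26. The counts with Fkbp5 and Sgk1 in those 16 were 12 and 11 of 13 (medians 0.30 and 0.37), where 52.8% and 51.9% of all genes had a positive r. Over 22 libraries they were 13 and 11 of 13 (medians 0.35 and 0.45), where 47.4% and 49.4% of all genes did. With Nr3c1 the count was 7 of 13 over 16 libraries and 8 of 13 over 22 (48.9% of all genes in each).

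Some cell type markers moved with the targets, with r given as a description over 8 rats. In VTA the summed choroid plexus markers had r of 0.78 with Fkbp5 and 0.48 with Sgk1, and the striatal neuron markers 0.51 and 0.77. Without rats 1 and 2 those of the choroid plexus were 0.37 and 0.38 and those of the striatal markers 0.68 and 0.85. Over these 6 rats the dopamine neuron markers had r of 0.81 with Fkbp5 and 0.88 with Sgk1, against -0.47 and -0.09 over 8, and the endothelial markers 0.82 and 0.73, against 0.13 and 0.38. The microglia markers had 0.68 and 0.65 over the 6, against -0.24 and 0.11 over 8, and the astrocyte markers 0.53 and 0.60, against -0.21 and 0.14. For Fkbp5 the sign of r with the dopamine neuron, microglia and astrocyte markers thus turned with the 2 libraries. In NAc core Fkbp5 had its largest r with the choroid plexus markers, 0.70, and the endothelial markers, 0.67, where Sgk1 had 0.24 and 0.37. The choroid plexus markers summed to 2.43 to 6.51 CPM in NAc core, near the floor, so nothing is read from their r there. Sgk1 had its largest in NAc core with the oligodendrocyte markers, 0.72, and the astrocyte markers, 0.54, where Fkbp5 had 0.02 and -0.14. Only 2 astrocyte markers could be matched, and their sum was mostly Gfap. It had a median of 610 CPM in core and 2607 in VTA, against 23.4 and 15.6 for Slc1a2. The values of r for the astrocyte markers are thus close to those of 1 gene. In NAc shell the largest were those of Sgk1 with the striatal markers, -0.60, and of Fkbp5 with the oligodendrocyte markers, -0.46. The library total had r of 0.78 with Fkbp5 in shell, and -0.24 to 0.49 for the other combinations of these targets and regions. Their part in the relation between Fkbp5 and Sgk1 was not tested.

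Between regions, most of the other targets that passed had the opposite direction to Fkbp5. Against VTA, 2 of 13 were higher and 7 lower in NAc core (median log2 difference -0.44, all genes -0.01), and 2 were higher and 7 lower in NAc shell (median -0.40, all genes -0.02). Of all genes 30.7% were higher and 31.1% lower in core, and 29.3% and 30.5% in shell, so that the 9 of 13 targets called in each were near the share of all genes called, 61.8% and 59.8%. Arl4d was higher in core by 1.98 ± 0.14 and in shell by 1.54 ± 0.12 on the log2 scale (edgeR adjusted p = 2.35e-09 and 7.86e-09). Klf9 was higher in core by 0.48 ± 0.12 (adjusted p = 0.00154) and Mt1 in shell by 0.85 ± 0.17 (adjusted p = 0.000297). Gjb6, a gap junction protein of astrocytes, was lower in core by -1.37 ± 0.14 and in shell by -0.96 ± 0.13 (adjusted p = 1.62e-07 and 6.18e-06). Glul, the glutamine synthetase of astrocytes, was lower by -0.35 ± 0.06 and -0.32 ± 0.05 (adjusted p = 9.77e-05 and 3.98e-05).

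Cdkn1c, another cell cycle inhibitor, was lower in core by -1.82 ± 0.32 on the log2 scale (edgeR adjusted p = 8.55e-05). Plin4, a coat protein of lipid droplets, was lower in shell by -0.96 ± 0.15 (adjusted p = 3.16e-05), and Zbtb16, a transcription factor, by -1.32 ± 0.24 (adjusted p = 0.000125). The 2 astrocyte markers that could be matched went opposite ways in core against VTA. Gfap, the filament protein of astrocytes, was lower in core by -1.86 ± 0.19 and in shell by -1.52 ± 0.20 (adjusted p = 1.62e-07 and 5.08e-06), with a median of 610 CPM in core, 799 in shell and 2607 in VTA. Slc1a2, a glutamate transporter of astrocytes, was higher in core by 0.49 ± 0.14 (adjusted p = 0.00449) and had 0.19 ± 0.14 in shell (adjusted p = 0.233), with medians of 23.4, 18.8 and 15.6 CPM. Their part in the differences of the targets was not tested. Without the VTA libraries of rats 1 and 2, 11 of 13 targets passed in core and 9 in shell, where 65.1% and 64.1% of all genes did. Between core and shell, Klf9 (0.40 ± 0.08, adjusted p = 0.000874) and Arl4d (0.42 ± 0.11, adjusted p = 0.0129) were higher in core, and Gjb6 (-0.43 ± 0.07, adjusted p = 0.000338) and Mt1 (-0.47 ± 0.11, adjusted p = 0.00633) lower, where 7.88% of all genes were higher and 7.21% lower.

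**Figure D4:**
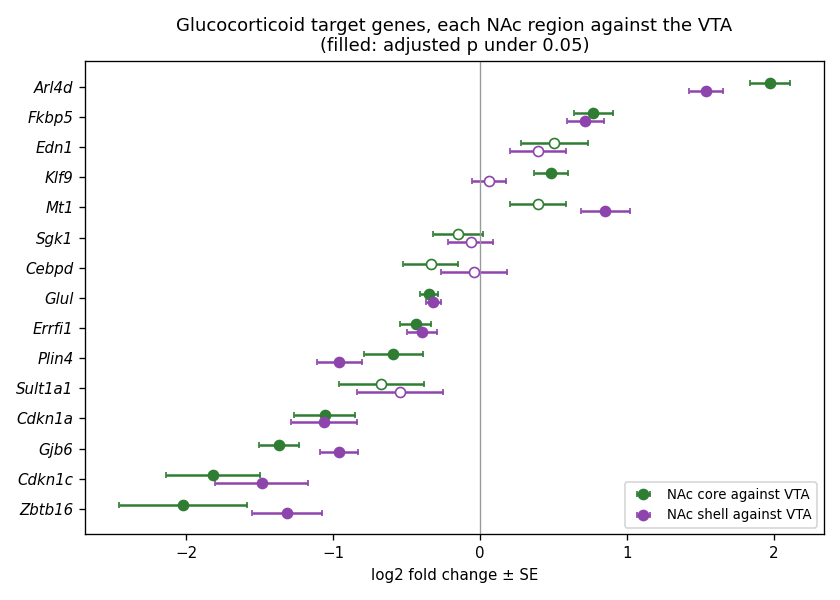
Fitted log2 fold change ± SE (x axis) of the 15 matched glucocorticoid targets (y axis) in NAc core (green) and NAc shell (purple) against VTA, with filled points where the adjusted p was under 0.05. Fkbp5 (0.77 and 0.72) is on the higher side with Arl4d, while Gjb6, Cdkn1c and Zbtb16 are on the lower side.

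Of 18 partners of the receptor, 8 could be matched, among them Nr3c1 and Fkbp5. Of the other 6, Fkbp4, the co-chaperone related to FKBP5 that favours hormone binding, was lower in NAc core than in VTA (-0.37 ± 0.05, edgeR adjusted p = 1.60e-05) and in NAc shell (-0.28 ± 0.06, adjusted p = 0.000336), the opposite direction to Fkbp5. Hsd11b1, the enzyme that regenerates active glucocorticoid, was higher in core than in VTA (0.35 ± 0.14, adjusted p = 0.0406) and than in shell (0.28 ± 0.06, adjusted p = 0.00496). Hsp90aa1, the chaperone that holds the receptor, was higher in core than in shell (0.27 ± 0.06, adjusted p = 0.00383) and lower in shell than in VTA (-0.37 ± 0.09, adjusted p = 0.00124), and Hspa8, a heat shock cognate chaperone, was lower in core than in VTA (-2.55 ± 0.57, adjusted p = 0.000810). Hspa8 was near the floor of detection, at 0 to 0.897 CPM in core, 0 to 2.40 in shell and 0.895 to 4.93 in VTA (at most 100 counts in a library), so that its fold depends on few counts. Both are uncertain, since chaperone genes have near-identical copies, and whether reads were assigned to those was not tested. In all, 1 partner was higher and 2 lower in core than in VTA, 0 and 2 in shell, and 2 and 0 in core against shell. The share of all genes called was 61.8%, 59.8% and 15.1% in these comparisons, and with 6 partners nothing is read from the counts against it. The counts against VTA were 3 and 2 without the VTA libraries of rats 1 and 2, 4 and 3 with the rat as a replicate block, and 5 and 3 with batch as a covariate. Between core and shell 1 fit over the 24 libraries called 1 partner.

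The subgroups addressed whether the direction of the cross, and with it the self-administration reported in the paper, went with the level of these genes. No member passed the test. Fkbp5 in VTA had the smallest p: its mean was 57.5 ± 13.2 CPM in A and 43.2 ± 9.20 in B (SD, n = 4 rats), a difference of 0.42 ± 0.20 on the log2 scale (edgeR adjusted p = 0.812, unadjusted 0.0687), and the groups overlapped. Without the VTA libraries of rats 1 and 2, which leaves 2 saline rats in A, it was 0.16 (adjusted p = 0.902), and those of Sgk1 and Nr3c1 were 0.23 and -0.09 (adjusted p = 0.900 and 0.881). The left-out libraries had 69.0 and 65.6 CPM beside their 15846 and 2745 CPM of choroid plexus markers. The log2 differences of Sgk1, A against B, were 0.24 ± 0.16 in core, 0.11 ± 0.12 in shell and 0.32 ± 0.25 in VTA (adjusted p = 0.663, 0.995 and 0.837), and those of Nr3c1 -0.09 ± 0.06, -0.09 ± 0.08 and -0.05 ± 0.09 (adjusted p from 0.692 to 0.995). Fkbp5 had 0.09 ± 0.08 in core and 0.10 ± 0.07 in shell (adjusted p = 0.768 and 0.995). Few genes of any kind passed: 0.0184% in core (3 genes), 0.00614% in shell (1 gene) and 0% in VTA, where edgeR gave 929 genes at an unadjusted p under 0.05 and DESeq2 called 6.

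Between nicotine-injected and saline-injected rats, no member passed in any region either. In core the log2 differences were -0.01 ± 0.07 for Nr3c1, -0.04 ± 0.09 for Fkbp5 and -0.17 ± 0.17 for Sgk1 (edgeR adjusted p = 0.991, 0.959 and 0.863). In shell they were -0.02 ± 0.09, 0.01 ± 0.07 and -0.07 ± 0.13 (adjusted p = 0.999 for each), and in VTA -0.03 ± 0.09, 0.23 ± 0.23 and -0.06 ± 0.27 (adjusted p = 1 for each). Without the libraries of rats 1 and 2, which leaves 2 nicotine rats, those in VTA were -0.06 for Nr3c1, -0.16 for Fkbp5 and -0.38 for Sgk1 (adjusted p = 1 for each). With batch as a covariate they were -0.11, 0.84 and 0.39 (adjusted p = 0.804, 0.280 and 0.772), a fit in which the injection is read from rats 2 and 16 of batch L alone, which also differ in subgroup. The edgeR test called 0% of genes in core, 0% in shell and 0% in VTA, where the unadjusted p was under 0.05 for 1041, 481 and 331 genes, and DESeq2 called 3, 4 and 4. In core and shell these differences carry the preparation batch with them.

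**Figure D5:**
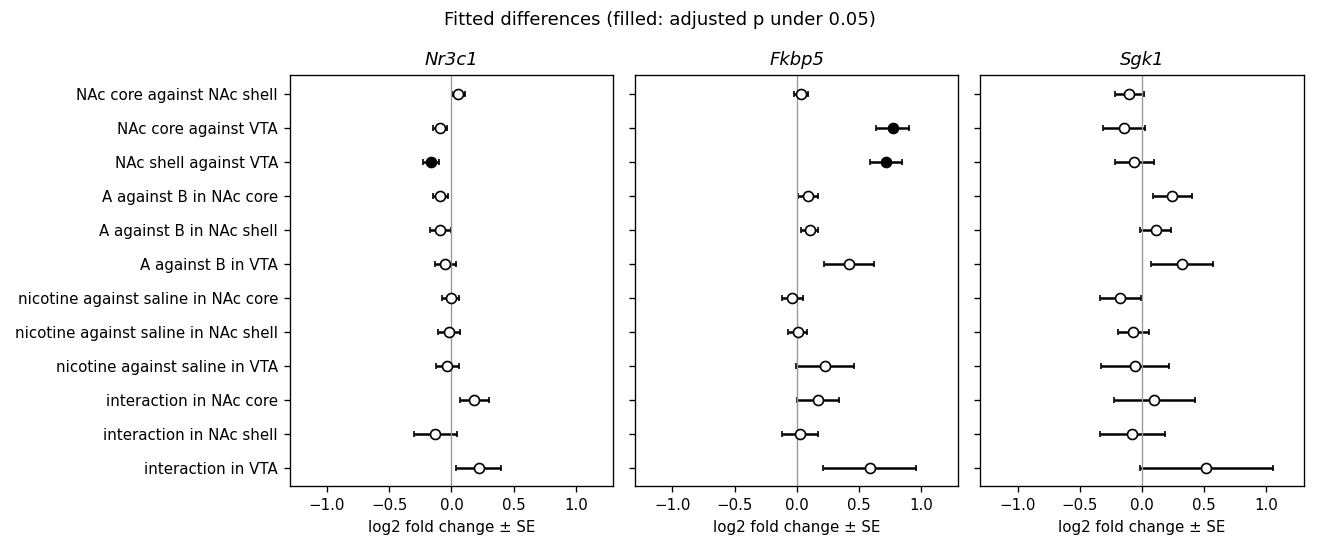
Fitted log2 difference ± SE (x axis) of Nr3c1, Fkbp5 and Sgk1 in the 12 comparisons (y axis), with filled points where the adjusted p over 16289 genes was under 0.05. The filled points are Fkbp5 in core (0.77) and shell (0.72) against VTA and Nr3c1 in shell against VTA (-0.16), and the widest errors are those of Sgk1 and Fkbp5 for the interaction in VTA.

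The effect of injection was also compared between subgroups, as an interaction. In core and shell it carries the difference between batches E and F with it. In VTA the nicotine-injected rats of A are rats 1 and 2, whose libraries held choroid plexus transcripts. In VTA the interaction was 0.22 ± 0.18 for Nr3c1, 0.59 ± 0.37 for Fkbp5 and 0.52 ± 0.53 for Sgk1 on the log2 scale (edgeR adjusted p = 0.910, 0.897 and 0.934), with 2 rats in each of the 4 combinations. Leaving out 1 rat at a time gave 0.11 to 0.34, 0.29 to 0.88 and 0.092 to 1.12. The interactions in core were 0.18 ± 0.12, 0.17 ± 0.17 and 0.10 ± 0.33 (adjusted p from 0.863 to 0.979) and in shell -0.13 ± 0.17, 0.02 ± 0.15 and -0.08 ± 0.26 (adjusted p from 0.960 to 0.997). Over all genes 0.00614% passed in core, 0.35% in shell and 0% in VTA, where edgeR gave 878 genes at an unadjusted p under 0.05 and DESeq2 called 79. 

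None of the other 13 targets and 6 partners passed in a subgroup or injection comparison by the edgeR test. The smallest p-values for the subgroups were those of Plin4 (0.82 ± 0.25, adjusted p = 0.424) and Ppid, a co-chaperone of the receptor complex (-0.29 ± 0.09, adjusted p = 0.424), in core, Cebpd, a transcription factor (0.58 ± 0.22, adjusted p = 0.995), and Ppid (-0.19 ± 0.09, adjusted p = 0.995) in shell, and Zbtb16 (0.73 ± 0.24, adjusted p = 0.812) and Cdkn1a (0.54 ± 0.30, adjusted p = 0.812) in VTA. For injection they were those of Cdkn1c (-0.35 ± 0.17, adjusted p = 0.772) and Ncoa2, a coactivator of the receptor (-0.38 ± 0.20, adjusted p = 0.773), in core. In shell they were Cebpd (0.51 ± 0.23, adjusted p = 0.999) and Hsd11b1 (0.16 ± 0.08, adjusted p = 0.999), and in VTA Cebpd (0.52 ± 0.30, adjusted p = 1) and Cdkn1a (0.49 ± 0.30, adjusted p = 1).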

How the data were processed

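Messenger RNA was measured in 24 libraries of 8 rats, and groups were taken from the sample labels. The authors trimmed paired reads with fastp 0.20.0, quantified them with Salmon 0.12.0 against Rnor version 6 and summed transcripts to genes, and deposited estimated counts as whole numbers without normalization. The submitters' processing notes name the same tools. Estimated counts divide reads that fit several transcripts, so near-identical genes can trade counts.

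Every column was assigned by its title (24 of 24; 0 had no sample). Depth was 17563458 to 24405856 counts per library. Genes with a normalized count over 10 in at least 3 of 24 libraries were tested (16289 of 17323, holding 99.98% of counts). The members, lists and tests were chosen with earlier results of these data known. Differences were tested with edgeR 4.0.16 under R 4.3.3 (quasi-likelihood), with TMM normalization, 1 term and Benjamini-Hochberg adjustment over all tested genes, at a threshold of 0.05. SE is the absolute fold change over the root of F, and tests were two-sided. Levels are CPM with TMM factors, and correlations used log2 CPM with a prior count of 2 and enumerated all 40320 pairings of the 8 rats. For correlations of deviations from group means, all pairings of the 8 rats were permuted at first. The deviations of 2 rats of a combination are equal and opposite, so that those p-values were not valid, and exchanges of rats within each combination replaced them after the first values were seen. CPM were not compared between genes, since gene lengths were not used here.

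The table holds Ensembl identifiers alone. Symbols came from the study's own pairing of identifiers with symbols in other experiments, which matched 5954 identifiers, so the lists are incomplete. Promoter sequences are from RefSeq (GRCr8). Coordinates of the build used for counting were not used here. Named genes of the lists were, in each region comparison, the 4 with the smallest adjusted p in each direction among those of both lists together that passed, and in each subgroup or injection comparison those that passed or, with none, the 2 with the smallest p. Fkbp4 and Hsp90aa1, named by this rule in another comparison, are also given for shell against VTA. Beside these, Hspa8, Gfap, Slc1a2 and the genes given for their correlation with the targets were chosen after their values were seen. Genes most like a member were the 3 with the highest r among those averaging 100 or more normalized counts.

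Other settings tried were median-ratio size factors, DESeq2 1.42.0, edgeR's filterByExpr, no filter, 1 fit over 24 libraries, covariates, subsets of rats, rat as a replicate block and each rat left out. Leaving out the VTA libraries of rats 1 and 2 together was chosen after seeing the data, as were the exchange test and batch as a covariate for injection in VTA. The libraries with the same rat number come from the same animal; the correlations of their deviations from the group means were -0.11 to 0.18. Libraries within a group differed by 5.39 to 134 times the sampling noise (chi-square over its degrees of freedom, 36 pairs), so none was a copy. The scripts were tested on simulated counts. No library was left out of the main tests.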

Additional observations from a re-analysis of the deposited data

Results flagged for a closer look

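Of 66 groups of 4 or 8 libraries looked at, 45 for the CPM of a member and 21 for the summed level of a cell type marker list in a region, 3 held a library far from the others, and chance gives about 1 in 20. The summed choroid plexus markers reached 15846 CPM in the VTA library of rat 1. Summed oligodendrocyte markers reached 16749 CPM in the NAc core library of rat 11, which also had the highest Sgk1 of that region, 126 CPM. Summed microglia markers reached 215 CPM in the NAc core library of rat 2. None of the 45 groups of member values held such a library.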

How the results depend on the processing

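The higher Fkbp5 of NAc core and NAc shell against VTA passed under all 16 alternatives run for each of the 2 comparisons (0.71 to 0.94 and 0.64 to 0.87 on the log2 scale), and no member passed under any alternative in a subgroup, injection or interaction comparison. With the rat as a replicate block the differences of Fkbp5 were 0.81 and 0.76 (edgeR adjusted p = 9.52e-05 and 0.000110), the pairing changed no call of a member, it called 4 and 3 of 6 partners and 10 and 10 of 13 targets against VTA (3 and 2, and 9 and 9 before), and the calls over all genes were 2724, 9734 and 9474 against 2457, 10072 and 9746. The cause of the changes below was not tested. Nr3c1 in shell against VTA did not pass with batch as a covariate (-0.11) and ranged from -0.20 to -0.14 with a rat left out. Sgk1 in shell against VTA was 0.0064 without the VTA libraries of rats 1 and 2, which also gave Fkbp5 -0.16 and Sgk1 -0.38 for injection in VTA (0.23 and -0.059 before). Batch as a covariate, added after seeing the data, gave 165 genes (0 before) and 0.39 for Sgk1 for injection in VTA, from the rats of batch L.

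One fit over 24 libraries called 1329 genes between core and shell (2457 before), and 0 and 0 between subgroups in core and shell (3 and 1). DESeq2 called 60, 5 and 6 genes between subgroups in core, shell and VTA, 3, 4 and 4 for injection and 17, 225 and 79 for the interaction, where edgeR called 3, 1 and 0, then 0 in each, then 1, 57 and 0. Nicotine rats alone gave 19 and 120 genes between subgroups in core and shell, saline rats alone 4 in shell, and injection as a covariate 0 in shell. For injection, subgroup as a covariate gave 1 gene in core, subgroup A alone 3 in core and 5 in shell, and subgroup B alone 1 and 36. With a rat left out the counts ranged from 1 to 3 and 0 to 3 between subgroups in core and shell, 0 to 1 for injection in shell, and 1 to 12, 1 to 134 and 0 to 137 for the interaction in core, shell and VTA. There a combination is left with 1 rat, taken to vary like the others.

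Differences of members near 0 changed sign. Between subgroups, Nr3c1 in VTA was 0.070 in nicotine rats alone and ranged from -0.088 to 0.0068 with a rat left out. For injection, subgroup A alone gave Nr3c1 0.074 and Fkbp5 0.033 in core and Nr3c1 0.093 and Sgk1 0.18 in VTA, and subgroup B alone gave Nr3c1 0.048 and Fkbp5 -0.0046 in shell and Fkbp5 -0.11 in VTA. With a rat left out, injection ranged for Nr3c1 from -0.042 to 0.034 in core, -0.059 to 0.043 in shell and -0.093 to 0.033 in VTA, for Fkbp5 from -0.090 to 0.020 in core and -0.049 to 0.043 in shell, and for Sgk1 from -0.18 to 0.047 in shell and -0.23 to 0.13 in VTA. The interaction ranged for Fkbp5 from -0.0057 to 0.33 in core and -0.12 to 0.15 in shell, and for Sgk1 from -0.34 to 0.44 in core and -0.41 to 0.20 in shell. In VTA it kept its sign, from 0.29 to 0.88 and 0.092 to 1.12.

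Among the correlations, Sgk1 between core and shell kept its sign and no longer passed with median-ratio size factors (0.90), as deviations from the group means (0.93), where no p under 0.125 can occur, and without the 2 farthest rats (0.73), and ranged from 0.85 to 0.94 with a rat left out. Nr3c1 between core and shell was -0.023 as deviations and -0.30 without the 2 farthest rats, and -0.12 as deviations between core and VTA. Without the 2 farthest rats, Nr3c1 had 0.18 with Fkbp5 in core and 0.24 and 0.043 with Sgk1 in core and shell. With a rat left out, Nr3c1 with Fkbp5 ranged from -0.41 to 0.31 in core, -0.92 to -0.54 in shell, where it passed without rat 11, and -0.15 to 0.66 in VTA, with Sgk1 from -0.68 to 0.062 in shell and -0.022 to 0.67 in VTA, and between core and shell from -0.47 to 0.23. For deviations from the group means, permuting all pairings of the 8 rats passed 4 of 18 correlations (smallest adjusted p = 0.0152) and exchanges within a combination 0 (smallest adjusted p = 0.562).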
